A study of Homo sapiens with 8 samples.

Results

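Long non-coding RNA (lncRNA) genes that start away from protein-coding genes were examined for RNA polymerase II (RNAPII) at their promoters and along their bodies in MDA-MB-453 cells, an established human triple-negative breast cancer cell line. A lone lncRNA promoter was defined as the transcription start site (TSS) of the longest isoform of a GENCODE lncRNA gene lying more than 5 kb from every protein-coding transcript start and outside the span of every protein-coding gene. By this rule 9463 of 18702 lncRNA promoters were members, out of 38523 lncRNA and protein-coding genes in all. The rule used annotation only and no measured value. The cells received vehicle or 600 nM of the CDK9 inhibitor CDDD11-8 (D11-8 in the sample labels) for 4 h, and both groups were otherwise cultured alike, with 2 replicates per group from independent passages of 1 cell line. The comparison asked how RNAPII at these genes differs between inhibitor and vehicle.

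RNAPII that has begun transcription stops shortly after most start sites and is released into the gene body by CDK9, the kinase of the elongation factor P-TEFb. Blocking CDK9 is known to hold RNAPII near promoters. Most promoters, those of lncRNAs included, fire in both directions, and CpG-rich promoters are the usual sites of such initiation. RNAPII also continues past the end of a gene, the transcription end site (TES), before it leaves the template, so a lncRNA annotated just downstream of an active gene can lie within the RNAPII of that gene. Many lncRNAs act near their own locus, whereas others, such as MALAT1 and NEAT1, are abundant nuclear RNAs, and a further group serves as precursors of microRNAs or small nucleolar RNAs (snoRNAs).

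A promoter was scored as occupied where a called RNAPII peak overlapped the 300 bp either side of the TSS, and gene body coverage is the share of bases, in percent, from 300 bp after the TSS to the TES inside a peak, in genes of at least 1 kb. Peak lists were those of the 4 ChIP libraries, each library gave 1 value, and groups were compared with an exact permutation test (two-sided). With 2 against 2 libraries its smallest p is 0.33, so no comparison between treatments could pass a threshold of 0.05. The vehicle lists held 78306 and 57493 peaks and the CDDD11-8 lists 25897 and 21842. Peak lists carry no read totals, so the depth behind each value is unknown. Treatment and list length cannot be told apart without a comparison at equal numbers of peaks, which is given beside the results where it was run. Among others, it was not run for coverage by gene length or along the gene, width by position or the percentile of fold enrichment. All 9 luminal lineage markers checked, among them FOXA1 and GATA3, had a promoter peak in all 4 libraries, and the 3 basal markers KRT5, KRT14 and TP63 had none in any.

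The promoters around which the results turn are printed as GRCh37 sequence from 250 bases before to 50 bases after the TSS, 5′ to 3′ on the strand of the gene, with matches of the motifs described further on in capitals, where overlapping matches run together. MALAT1 (chr11:65264861-65265160, + strand) and NEAT1 (chr11:65190019-65190318, + strand) were among the strongest members and were occupied in all 4 libraries.
MALAT1: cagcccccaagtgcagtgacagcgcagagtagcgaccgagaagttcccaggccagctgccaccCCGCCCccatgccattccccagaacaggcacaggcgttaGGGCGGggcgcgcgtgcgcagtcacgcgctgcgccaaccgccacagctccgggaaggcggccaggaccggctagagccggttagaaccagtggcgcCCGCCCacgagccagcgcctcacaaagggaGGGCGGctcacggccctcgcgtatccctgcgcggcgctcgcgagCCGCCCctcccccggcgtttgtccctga
NEAT1: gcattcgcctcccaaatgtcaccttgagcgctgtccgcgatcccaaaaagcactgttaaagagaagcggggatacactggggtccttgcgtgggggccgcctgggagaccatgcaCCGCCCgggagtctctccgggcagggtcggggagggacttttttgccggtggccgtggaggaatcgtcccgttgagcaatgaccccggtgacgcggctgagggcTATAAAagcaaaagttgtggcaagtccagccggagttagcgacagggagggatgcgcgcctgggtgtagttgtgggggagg
DLEU2 (chr13:50699628-50699927, − strand) and MIR181A1HG (chr1:198906501-198906800, − strand) were occupied at the promoter in all 4 libraries and were among the members with the largest negative difference in covered gene body bases.
DLEU2: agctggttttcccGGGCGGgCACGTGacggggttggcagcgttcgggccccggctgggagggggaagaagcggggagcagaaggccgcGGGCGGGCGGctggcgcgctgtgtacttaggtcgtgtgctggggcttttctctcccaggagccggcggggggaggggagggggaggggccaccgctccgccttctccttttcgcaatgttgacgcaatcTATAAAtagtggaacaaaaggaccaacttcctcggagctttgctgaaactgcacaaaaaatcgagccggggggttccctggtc
MIR181A1HG: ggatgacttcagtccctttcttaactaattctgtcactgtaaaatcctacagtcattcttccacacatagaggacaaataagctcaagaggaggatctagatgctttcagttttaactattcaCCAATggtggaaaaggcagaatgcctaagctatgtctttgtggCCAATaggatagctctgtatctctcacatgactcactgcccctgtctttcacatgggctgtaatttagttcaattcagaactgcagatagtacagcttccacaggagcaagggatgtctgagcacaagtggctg
ENSG00000260059 (chr2:139359947-139360246, − strand) had a promoter peak in the vehicle libraries but in neither CDDD11-8 library.
ENSG00000260059: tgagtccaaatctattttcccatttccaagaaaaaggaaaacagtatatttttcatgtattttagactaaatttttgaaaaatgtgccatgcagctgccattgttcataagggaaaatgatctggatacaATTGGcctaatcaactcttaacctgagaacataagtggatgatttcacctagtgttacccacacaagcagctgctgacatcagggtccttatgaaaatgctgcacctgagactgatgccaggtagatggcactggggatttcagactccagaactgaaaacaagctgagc
ENSG00000290989 (chr1:224183409-224183708, + strand) and LINC00898 (chr22:48026211-48026510, − strand) had the reverse pattern.
ENSG00000290989: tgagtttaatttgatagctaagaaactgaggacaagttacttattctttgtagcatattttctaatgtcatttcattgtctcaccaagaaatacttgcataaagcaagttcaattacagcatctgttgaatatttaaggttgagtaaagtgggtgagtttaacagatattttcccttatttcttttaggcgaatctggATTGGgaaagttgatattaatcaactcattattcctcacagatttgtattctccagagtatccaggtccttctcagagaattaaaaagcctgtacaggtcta
LINC00898: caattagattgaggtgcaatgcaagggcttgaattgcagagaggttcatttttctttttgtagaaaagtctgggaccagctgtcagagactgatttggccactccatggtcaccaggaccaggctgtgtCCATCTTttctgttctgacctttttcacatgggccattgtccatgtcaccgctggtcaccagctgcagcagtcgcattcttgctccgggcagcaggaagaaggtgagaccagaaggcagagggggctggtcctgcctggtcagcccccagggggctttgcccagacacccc

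Few lone lncRNA promoters carried RNAPII. A peak was present at 8.79% and 8.35% of the 9463 promoters under vehicle and at 7.86% and 7.07% under CDDD11-8. The vehicle mean was 8.57% ± 0.314 (SD, n = 2) and the CDDD11-8 mean 7.47% ± 0.560 (SD, n = 2), and the groups did not overlap (exact permutation p = 0.33). When every list was limited to as many peaks as the shortest one, the order turned, with means of 7.08% and 7.38% for vehicle and CDDD11-8 (exact permutation p = 1.00). Protein-coding promoters that met the same distance rule (n = 13874) were occupied at 45.7% ± 0.729 (SD, n = 2) for vehicle against 46.9% ± 1.39 (SD, n = 2) for CDDD11-8, and the libraries of the groups overlapped. The gap between lone lncRNA and lone protein-coding promoters was −37.1 percentage points with vehicle and −39.4 with CDDD11-8, a difference of −2.28 that separated the groups (exact permutation p = 0.33) and was −3.98 at equal numbers of peaks. Without CDDD11-8 replicate 2 the difference between treatments within the members was −0.708 percentage points, against −1.10 with all libraries. As a local reference, a window of the same size 5 kb upstream of the lone lncRNA TSS held a peak in 3.78%, 3.30%, 2.67% and 2.00% of cases in vehicle 1, vehicle 2, CDDD11-8 1 and CDDD11-8 2.

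Of the 9463 members, 974 had a promoter peak in at least 1 library and 586 in all 4. Members do not stand for independent sites, because 660 of them had a promoter window that overlapped the window of another member, and the 586 promoters lay in 458 to 460 distinct peaks per library. The share with a peak differed by the kind of name. Hosts of microRNAs or snoRNAs were occupied most often, with 28 of 70 (40%) having a peak in all 4 libraries, followed by genes with other symbols (105 of 560) and antisense-named genes (33 of 201). LINC genes (97 of 2059, 4.71%) and genes known only by an Ensembl identifier (323 of 6562, 4.92%) had lower shares, and none of the 11 genes with divergent-, intronic- or overlapping-type names had a peak in any library. No treatment comparison was made between these classes.

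A promoter peak in both vehicle libraries but in no CDDD11-8 library was found at 103 members, or 1.09%, against 1.51% over all 38523 genes. The reverse pattern was found at 38 members, or 0.402%, against 0.984% over all genes. Both shares were below those over all genes, but promoters with no peak in any library cannot show either pattern. Such promoters were 58.9% of all genes and 89.7% of members. Beside the 103 and 38 members, 586 members were occupied in all 4 libraries. Over all genes, 582 were vehicle-only and 379 CDDD11-8-only, beside 12909 occupied in all 4. The lower shares therefore do not mean that occupied members changed pattern less often. The 103 and 38 became 51 and 63 at equal numbers of peaks, so the order of the 2 counts turned with the length of the lists. Without vehicle replicate 2 the counts were 186 and 60, and without CDDD11-8 replicate 2 the CDDD11-8-only count was 72. Lone protein-coding promoters had the vehicle-only pattern in 95 cases and the CDDD11-8-only pattern in 176.

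The vehicle-only promoters lay close behind the ends of protein-coding genes. Of the 103, 77 (74.8%) started within 20 kb past a protein-coding TES, at a median distance of 3.70 kb over all 103, and 52 of the 77 were transcribed in the same direction as that gene. The position was not seen in lncRNAs alone, since 371 of the 582 vehicle-only promoters over all genes (63.75%) and 73 of the 95 lone protein-coding ones (76.8%, median distance 3.965 kb) also started within 20 kb past a protein-coding TES. Of the 586 promoters occupied in all 4 libraries, 212 (36.2%) started within 20 kb past a protein-coding TES, and of the 38 CDDD11-8-only promoters 13 (34.2%) did. Among members with no peak the share was 16.2%. At equal numbers of peaks the vehicle-only share was 86.3%. Of the protein-coding genes that ended within 20 kb upstream of a vehicle-only member, those of 61 of the 77 members (79.2%) had a promoter peak in all 4 libraries themselves. The same held for 143 of 212 members occupied in all 4 libraries (67.5%) and for 11 of 13 CDDD11-8-only members (84.6%). The bodies of 72 of these genes were covered by peaks to 39.4% and 30.2% on average under vehicle and 15.75% and 13.3% under CDDD11-8. For the 174 genes before members occupied in all 4 libraries the values were 36.3% and 31.8% against 26.4% and 21.0%, and for the 13 before CDDD11-8-only members 37.8% and 34.3% against 37.1% and 27.0%. The peak over a vehicle-only promoter reached into the span of a protein-coding gene in 31 of 103 cases (30.1%) in vehicle 1 and 19 of 103 (18.45%) in vehicle 2. For members occupied in all 4 libraries the shares were 14.7% and 15.7%, so the sets lay close together in vehicle 2. The position was not used to choose the members, but RNAPII that initiated at such a lncRNA and RNAPII from the gene before it cannot be told apart in these data.

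**Figure D1:**
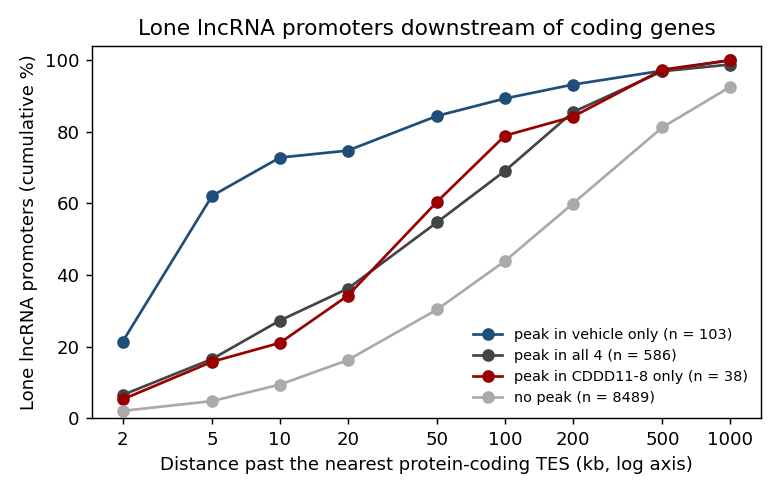
The cumulative percent of lone lncRNA promoters (vertical axis) is plotted against the distance past the nearest protein-coding TES on a log axis (kb), with 1 line for each pattern of promoter peaks. The vehicle-only line reaches 62.1% at 5 kb and 74.8% at 20 kb, whereas the lines for promoters with a peak in all 4 libraries and for CDDD11-8-only promoters reach 36.2% and 34.2% at 20 kb.

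The lower share of occupied promoters with CDDD11-8 was seen in members behind a protein-coding gene. Among the 1817 members within 20 kb past a protein-coding TES, 20.7% and 19.1% had a promoter peak with vehicle and 15.1% and 13.3% with CDDD11-8. Among the 7646 members farther away, the shares were 5.96% and 5.79% with vehicle and 6.13% and 5.60% with CDDD11-8, and the groups overlapped. The difference between near and far members was 14.0 percentage points with vehicle and 8.33 with CDDD11-8, a change of −5.68 that separated the groups (exact permutation p = 0.33). It kept its direction at equal numbers of peaks, at −2.08 (exact permutation p = 0.33). Lone protein-coding promoters within 20 kb past another protein-coding TES did not show a lower share, with 51.5% and 52.1% for vehicle and 53.2% and 50.4% for CDDD11-8. Those farther away had 41.8% and 43.1% with vehicle and 45.0% and 43.5% with CDDD11-8. Their near minus far difference was 9.345 percentage points with vehicle and 7.555 with CDDD11-8. This change of −1.79 had the same direction as in the members and also separated the groups (exact permutation p = 0.33).

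**Figure D2:**
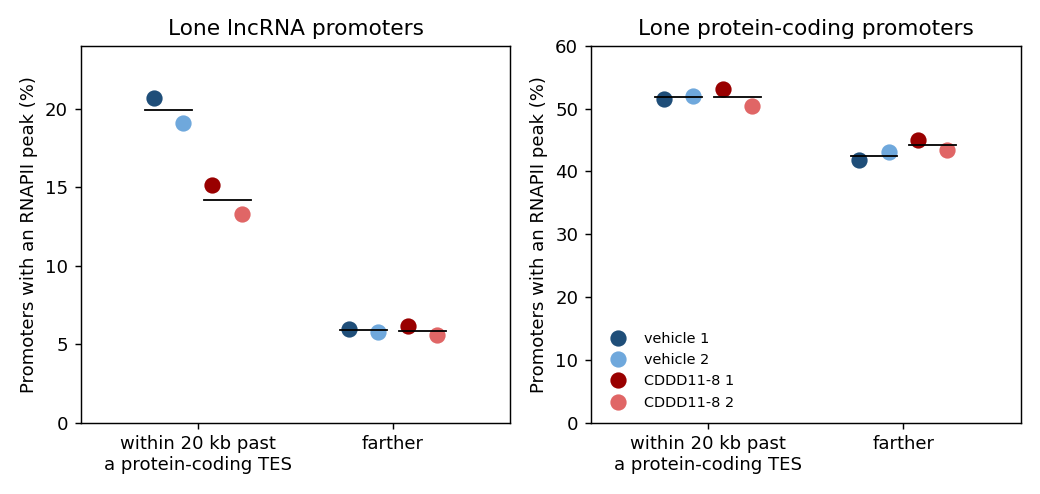
Each point is the percent of promoters with an RNAPII peak (vertical axis) in 1 of the 4 libraries, for promoters within 20 kb past a protein-coding TES and for those farther away, and black lines are group means. In lone lncRNA promoters the vehicle points (20.7% and 19.1%) lie above the CDDD11-8 points (15.1% and 13.3%) near a protein-coding TES and overlap them farther away, and in lone protein-coding promoters they overlap near a TES.

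Of the 5 strongest vehicle-only promoters, ranked by the percentile of promoter fold enrichment within each library, 4 are described here, MAL2-AS1, ENSG00000260059, LINC02631 and HSD17B2-AS1. MAL2-AS1 starts 3.30 kb past MAL2, a gene for a protein of membrane trafficking, and opposite to it. Its body was covered to 93.9% and 94.1% with vehicle and to 0% and 6.21% with CDDD11-8, which did not overlap. This body of 32.2 kb runs back into MAL2, so RNAPII of MAL2-AS1 and of MAL2 cannot be told apart there. ENSG00000260059 and LINC02631 share 1 peak of 9392 bp and 9164 bp, and their TSSs lie 28.9 kb and 28.1 kb past SPOPL, and HSD17B2-AS1 starts 8.53 kb past MPHOSPH6. Coverage of ENSG00000260059 was 89.6% and 98.8% with vehicle and 0% in both CDDD11-8 libraries.

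The 5 strongest CDDD11-8-only promoters were ENSG00000290989, ENSG00000252690, LINC01943, LINC00898 and GUSBP1. Of these, ENSG00000252690 lay in the promoter peak of SNHG21, which measured 2047 bp and 3194 bp with vehicle and 4255 bp and 4215 bp with CDDD11-8. LINC01943 likewise lay in the promoter peak of CYTOR, which measured 3585 bp and 1305 bp with vehicle and 5929 bp and 4744 bp with CDDD11-8. In both cases a neighbouring promoter peak was wider with CDDD11-8 and extended over the second TSS. ENSG00000290989 had a promoter peak of 6139 bp and 6478 bp with CDDD11-8 only, while its body was covered to 72.8% and 80.1% with vehicle and to 4.17% and 4.63% with CDDD11-8. LINC00898 lies 455 kb past the nearest protein-coding TES and had peaks of 3297 bp and 3332 bp. GUSBP1, named as a pseudogene of GUSB, had short peaks of 949 bp and 616 bp, and reads of near-identical copies may be shared among such genes.

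The sequence of the promoter differed between the patterns. Among members occupied in all 4 libraries the median GC content of the 300 bases was 62.7% and the median ratio of observed to expected CpG was 0.76, and 69.2% of the 584 windows without unread bases had a ratio above 0.6. Vehicle-only promoters had a median GC content of 45.8% and a median CpG ratio of 0.23, with 3.92% above 0.6, which is close to the members without a peak (46.0%, 0.23 and 9.88%). CDDD11-8-only promoters lay between, at 56.0%, 0.45 and 36.8%. Lone protein-coding promoters occupied in all 4 libraries were richer still, with a CpG ratio of 0.87 and 89.9% above 0.6. These are descriptions of the sequence, and no test was made on them. With CpG-poor promoters left out, an alternative added after the data were seen, 33.2% of the remaining members were occupied with vehicle and 34.4% with CDDD11-8, and 4 vehicle-only and 14 CDDD11-8-only promoters remained. In the printed examples the CpG ratio was 0.89 for MALAT1, 0.80 for NEAT1 and 0.82 for DLEU2, against 0.12 for ENSG00000290989, 0.14 for LINC00898 and 0.00 for ENSG00000260059 and MIR181A1HG.

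Simple motifs were searched on both strands of the same 300 bases. The Sp/KLF motif GGGCGG was present in 59.8% of members occupied in all 4 libraries, in 13.7% of vehicle-only promoters, in 11.6% of members without a peak and in 40.0% of all 23306 lone promoters. The ETS motif CCGGAA was present in 25%, 2.94%, 6.11% and 13.9% of the same sets. The TATA box TATAAA had the opposite order, at 6.34%, 23.5%, 18.8% and 13.6%. The CCAAT box differed little, at 36.3%, 36.3%, 38.2% and 36.0%. The E-box CACGTG was found in 9.93% and the YY1 motif AAGATGG in 4.62% of members occupied in all 4 libraries, against 7.19% and 5.68% of all lone promoters. A match is a match of letters in a window, and GC-rich motifs are found more often in GC-rich windows.

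Where a promoter was occupied in all 4 libraries, its peak was wider with CDDD11-8. The median width over the 586 promoters was 2851 bp and 2935 bp with vehicle and 4048 bp and 3481 bp with CDDD11-8. The means of these medians, 2893 bp ± 59.4 (SD, n = 2) and 3764.5 bp ± 401 (SD, n = 2), differed by 871.5 bp, more than the spread within either group (exact permutation p = 0.33), by 895 bp at equal numbers of peaks and by 561.5 bp without CDDD11-8 replicate 1. The greater width was found on both sides of the TSS. The median reach upstream of the TSS was 1283.5 bp and 1367.5 bp with vehicle and 1885 bp and 1621.5 bp with CDDD11-8, and the reach downstream was 1400.5 bp and 1459 bp against 1997 bp and 1758 bp. The peak leaned downstream by a median of 136.5 bp with vehicle and 95.5 bp with CDDD11-8, and at lone protein-coding promoters by 347.5 bp and 375.8 bp.

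The difference in width was smaller than at lone protein-coding promoters, whose median width was 2746.5 bp and 2837 bp with vehicle and 4482.5 bp and 4021.5 bp with CDDD11-8. The members minus these gave 101 bp with vehicle and −487.5 bp with CDDD11-8, a difference of −588.8 bp that separated the groups (exact permutation p = 0.33) and was −565 bp at equal numbers of peaks. Widths above both vehicle values in each CDDD11-8 library were found at 313 of 586 members (53.4%), against 62.9% over all genes, and widths below both vehicle values at 80 (13.7%), against 10.4%. Without vehicle replicate 2 the narrower count was 124, and without CDDD11-8 replicate 1 it was 157. The split by position was computed here too. Among the 374 members farther than 20 kb past a protein-coding TES 62.6% were wider and 7.75% narrower, and among the 212 within 20 kb past a protein-coding TES 37.3% were wider and 24.1% narrower. The median width of the latter was 3876 bp and 3691 bp with vehicle and 4396.5 bp and 3550 bp with CDDD11-8, and the groups overlapped.

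**Figure D3:**
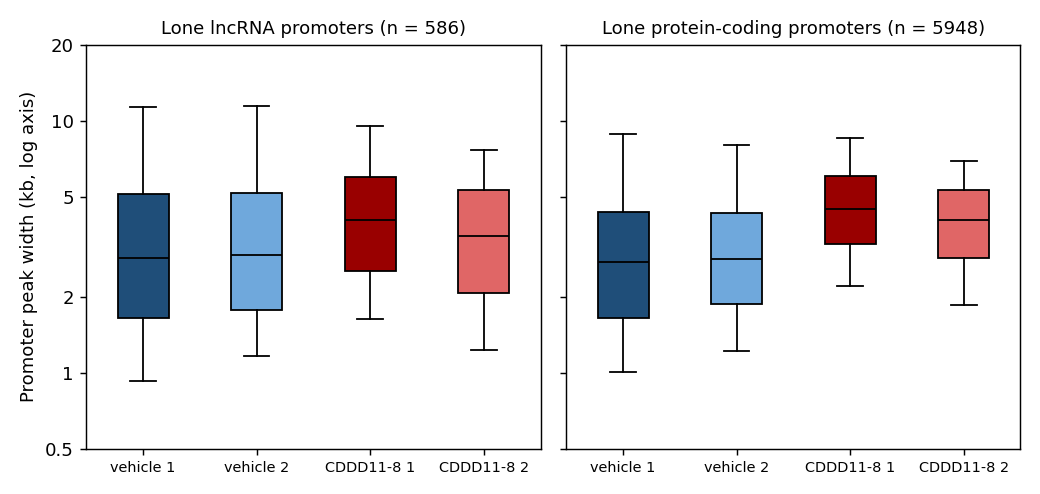
Widths of promoter peaks (kb, log axis) in each of the 4 libraries are shown for the 586 lone lncRNA and 5948 lone protein-coding promoters with a peak in all 4. Boxes span the middle of the distribution from the 25th to the 75th percentile with the median as a line, and whiskers run from the 10th to the 90th percentile. The CDDD11-8 medians lie above the vehicle medians in both sets, at 4048 bp and 3481 bp against 2851 bp and 2935 bp for lone lncRNA promoters.

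Relative to other promoters in the same library, the members were weaker with CDDD11-8. Their median percentile of promoter fold enrichment, the ratio of RNAPII signal to local background ranked among all genes with a promoter peak, was 55.9 and 49.8 with vehicle and 35.1 and 34.6 with CDDD11-8. Lone protein-coding promoters stayed between 46.5 and 50 in all 4. The gap between the sets was 4.13 percentile points with vehicle and −12.7 with CDDD11-8 (difference −16.8, exact permutation p = 0.33, groups not overlapping). The fold enrichment itself was higher with CDDD11-8, with a median of 6.53 and 8.13 for vehicle and 19.4 and 13.1 for CDDD11-8 over the members, and 5.79, 8.15, 24.5 and 16.0 over lone protein-coding promoters. This ratio rests on a scaling of ChIP to input that was not the same in all libraries, since the pileup took whole values in the vehicle lists but not in the CDDD11-8 lists.

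Gene body coverage was on average lower with CDDD11-8. The rule for members restricts the TSS and not the body. Over all 9463 members, the TES of 894 lay inside a protein-coding span or past a protein-coding start. RNAPII of a protein-coding gene can lie in such a body, and these members were not left out. Over 513 members of at least 1 kb with a promoter peak in all 4 libraries, mean gene body coverage was 36.4% and 34.7% with vehicle and 34.5% and 29.7% with CDDD11-8. The means, 35.5% ± 1.18 (SD, n = 2) and 32.1% ± 3.34 (SD, n = 2), differed by −3.46 percentage points (exact permutation p = 0.33) and by −0.700 at equal numbers of peaks, where the groups overlapped. Without CDDD11-8 replicate 1 the difference was −5.82 and without replicate 2 it was −1.63. Lone protein-coding genes were covered to 29.9% and 26.0% with vehicle and to 21.2% and 17.4% with CDDD11-8. The difference in change between the sets was 5.13 percentage points, with the groups not overlapping (exact permutation p = 0.33), and 2.94 at equal numbers of peaks. The sets differed in length, with 155 of 513 members but 408 of 5929 lone protein-coding genes at 1 to 5 kb. The other lncRNA genes, which start near or within protein-coding genes, were covered to 42.1% and 41.4% with vehicle and to 46.3% and 42.4% with CDDD11-8, and the difference in change to the members was −6.05 percentage points (exact permutation p = 0.33). Each CDDD11-8 library had less coverage than both vehicle libraries at 146 of 513 members (28.5%), against 33.1% over all genes, and more at 144 (28.1%), against 29% over all genes. These near-equal counts were 92 and 168 at equal numbers of peaks and 134 and 40 with the body counted from 2 kb after the TSS.

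Coverage was also computed by gene length. Members of 1 to 5 kb (n = 155) were covered to 68.8% and 69.6% with vehicle and 78.7% and 68.1% with CDDD11-8, and the groups overlapped. Members of 5 to 20 kb (n = 138) were covered to 34.4% and 31.8% with vehicle and 27.5% and 24.3% with CDDD11-8. Members of 20 to 100 kb (n = 167) were covered to 16.3% and 13.1% against 8.79% and 6.96%, and those of 100 kb or more (n = 53) to 10.1% and 8.29% against 4.14% and 3.53%. The groups were apart in each of the 3 longer classes (exact permutation p = 0.33 each). From the shortest to the longest class the differences were 4.14, −7.19, −6.81 and −5.37 percentage points. In lone protein-coding genes of the same classes (n = 408, 1605, 2844 and 1072) they were 1.31, −11.7, −9.955 and −3.99. At 100 kb or more the members thus had the larger negative difference. Coverage by length was not repeated at equal numbers of peaks, so treatment and list length cannot be told apart here.

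Along the 220 members of 20 kb or longer, the order of the groups crossed between 2 and 5 kb from the TSS. Between 1 and 2 kb, 47.9% and 46.1% of bases lay in a peak with vehicle and 64.9% and 60.5% with CDDD11-8. Between 2 and 5 kb the groups overlapped, at 18.5% and 15.8% against 19.8% and 14.7%. Between 5 and 10 kb coverage was 15.9% and 11.6% with vehicle and 4.37% and 3.30% with CDDD11-8, and between 10 and 20 kb it was 15.9% and 12.4% against 4.34% and 3.47%. Lone protein-coding genes of that length (n = 3916) crossed at the same distance. The excess close to the start was smaller in the members, with a difference of 15.7 percentage points between 1 and 2 kb against 25.8 in protein-coding genes, and the difference between the sets separated the groups (−10.1, exact permutation p = 0.33). Coverage along the gene was not repeated at equal numbers of peaks either.

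**Figure D4:**
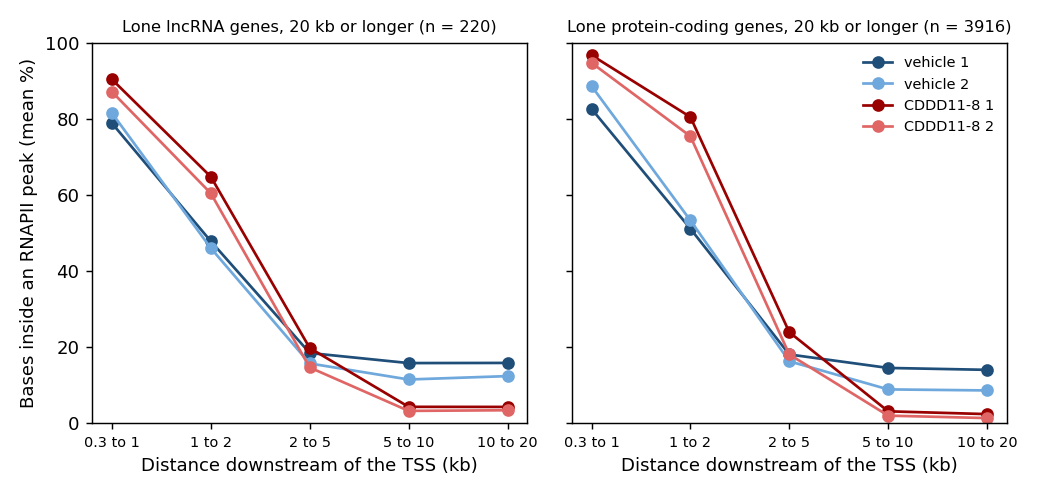
The mean percent of bases inside an RNAPII peak (vertical axis) is plotted for 5 intervals of distance downstream of the TSS (kb), 1 line per library, in 220 lone lncRNA genes and 3916 lone protein-coding genes of 20 kb or longer with a promoter peak in all 4 libraries. The CDDD11-8 lines lie above the vehicle lines from 0.3 to 2 kb and below them from 5 to 20 kb in both panels.

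A promoter peak without a separate peak in the gene body was more frequent with CDDD11-8. It was found at 50.9% and 60.1% of occupied members with vehicle and at 72.3% and 73.6% with CDDD11-8, a difference of 17.5 percentage points (exact permutation p = 0.33). At equal numbers of peaks the means were 75.3% and 73.9%, so that this difference turned with the length of the lists. In lone protein-coding genes the shares were 32.2%, 40.2%, 64.3% and 68.3% in vehicle 1, vehicle 2, CDDD11-8 1 and CDDD11-8 2.

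The abundant nuclear RNAs MALAT1 and NEAT1 were among the strongest members, and MALAT1 was covered from end to end in all 4 libraries. Of the 12 RNAs on the nuclear RNA list, 9 met the rule and 6 had a promoter peak in all 4 libraries, and the other 3 had none in any. The list was set by name, and where each RNA resides was not measured. MALAT1, a nuclear-speckle RNA, was at the 99.8th, 99.9th, 99.6th and 99.7th percentile of promoter fold enrichment in vehicle 1, vehicle 2, CDDD11-8 1 and CDDD11-8 2. Its antisense transcript TALAM1 and ENSG00000270117 lie in the same peak, which measured 19984 bp, 16482 bp, 20851 bp and 19707 bp. NEAT1, the scaffold of paraspeckles, shares a peak with ENSG00000290057 that measured 36217 bp, 32220 bp, 37383 bp and 21198 bp, and its body was covered to 100% in vehicle 1, vehicle 2 and CDDD11-8 1 and to 98.9% in CDDD11-8 2. NORAD, an RNA of the same list that binds PUMILIO proteins, was covered to 100% in the same 3 libraries and to 96.1% in CDDD11-8 2.

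The other occupied RNAs of this list were long genes on the X chromosome, and their bodies were covered less with CDDD11-8. FIRRE, a 142 kb gene whose RNA takes part in nuclear organisation, was covered to 21.4% and 15.9% with vehicle and to 1.46% and 1.28% with CDDD11-8. Its promoter peak was 4873 bp and 5903 bp with vehicle and 2002 bp and 2267 bp with CDDD11-8. FTX, a 329 kb gene of the X-inactivation centre, was covered to 11.95% and 9.47% with vehicle and to 1.67% and 1.42% with CDDD11-8. At equal numbers of peaks the differences shrank from −17.3 to −7.54 percentage points for FIRRE and from −9.16 to −0.996 for FTX, and the groups stayed apart. JPX, a 126 kb gene of the same centre, was covered to 11.3% and 5.52% against 2.30% and 2.37%, while its promoter peak was wider with CDDD11-8 (2715 bp and 2748 bp) than with vehicle (1640 bp and 1342 bp). The difference for JPX of −6.09 percentage points was −3.19 without vehicle replicate 1, and at equal numbers of peaks the order of its means turned, to 1.63% with vehicle and 2.33% with CDDD11-8.

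The strongest members outside these were ENSG00000259725 and STAG3L5P with STAG3L5P-PVRIG2P-PILRB. ENSG00000259725, a gene of 886 bp, starts 4.19 kb past the homeobox gene IRX5 and lay in a peak of 20310 bp to 21726 bp in all 4 libraries. That peak reached into a protein-coding gene span in all 4, so RNAPII of the lncRNA and of the coding gene cannot be told apart. STAG3L5P and STAG3L5P-PVRIG2P-PILRB share 1 promoter peak of 5387 bp to 5735 bp. STAG3L5P-PVRIG2P-PILRB, a read-through transcript of pseudogenes and PILRB, was covered to 84.4% and 81.8% with vehicle and to 13.7% and 13.1% with CDDD11-8. Its promoter peak differed little in width, and the fold enrichment there was 12.8 and 21.1 with vehicle and 49.4 and 43.8 with CDDD11-8.

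MicroRNA hosts, whose transcripts are cut into microRNA precursors, included 52 members, of which 37 had no promoter peak in any library, 13 had one in all 4 and 2 had another pattern. Among the 13, gene body coverage was lower in both CDDD11-8 libraries in 7, higher in 1 and overlapping in 5, against 33.1% lower and 29% higher over all genes. The promoter peak was wider in 8 and narrower in 1, against 62.9% and 10.4% over all genes, so that the share of wider peaks was near that of all genes. The median coverage of the 13 was 36.5% and 29.4% with vehicle and 12.4% and 8.70% with CDDD11-8. MIR181A1HG, which hosts a miR-181 cluster, was covered over 61.3% and 59.2% of its 160 kb with vehicle and over 4.93% and 7.85% with CDDD11-8. MIR29B2CHG, a host of miR-29 family members, was covered to 91.7% and 73.3% against 48.0% and 33.5%. Both stood among the 8 members with the largest negative difference in covered bases.

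Hosts of let-7 microRNAs, a family known to restrain growth, gave unlike values. MIRLET7A1HG was covered to 30.9% and 26.7% with vehicle and to 8.86% and 6.15% with CDDD11-8, while its promoter peak was 2727 bp and 3147 bp with vehicle and 5378 bp and 4326 bp with CDDD11-8. At equal numbers of peaks the difference for MIRLET7A1HG was −14.0 percentage points in place of −21.3. MIRLET7IHG was covered to 32.6% and 29.4% against 15.6% and 16.9%, but at equal numbers of peaks its means were 19.35% and 16.25% and the groups overlapped (exact permutation p = 1.00). MIRLET7BHG lay within very broad peaks, of 85744 bp to 88310 bp in 3 libraries and 27302 bp in vehicle 1, and its body was covered to at least 99.6% throughout.

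Other microRNA hosts gave mixed values. MIR17HG, the host of the miR-17-92 cluster, was covered to 6.66% and 5.66% with vehicle and to 4.53% and 3.60% with CDDD11-8, a difference of −2.10 percentage points that was −0.725 at equal numbers of peaks. MIR34AHG, the host of the p53-responsive miR-34a, was covered to 36.5% and 13.6% against 22.2% and 17.3%, so that the groups overlapped, while its promoter peak was 1476 bp and 2596 bp against 4610 bp and 3694 bp. MIR130AHG was covered to 72.2% and 41.0% against 12.4% and 8.70%, a difference of −46.1 percentage points that was −30.5 without vehicle replicate 1. The protein-coding gene YPEL4, on the other strand, ends within this 14.4 kb body, 6.71 kb after the TSS. MIR23AHG (42.7% to 54.1%) overlapped between groups, MIR210HG, the host of the hypoxia-induced miR-210, was at 100% throughout, and MIR2117HG (2.52% to 11.8%) overlapped. The promoter peak of MIR210HG reached into a protein-coding gene span in all 4 libraries. MIR924HG, at 0.534% and 0.694% against 0.414% and 0.339%, turned direction with a stricter q-value and at equal numbers of peaks. Of the 13 hosts occupied in all 4 libraries, MIR4458HG was the 1 with higher coverage, at 1.53% and 1.38% against 4.31% and 3.15%, and its direction turned when the body was counted from 2 kb after the TSS. Of the 2 hosts with another pattern, MIR193BHG had no promoter peak in vehicle 1 only, and its coverage was higher with CDDD11-8, at 7.1% and 0.502% against 11.7% and 11.0%. With its body counted from 2 kb after the TSS the means were 2.80% and 5.73%, and the groups overlapped. MIR365BHG had no promoter peak in CDDD11-8 2 only, and its coverage of 100% and 88.45% with vehicle against 19.99% and 0% with CDDD11-8 was the largest negative difference among the microRNA hosts named here.

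SnoRNA hosts carry snoRNAs in their introns, and many of their promoter peaks were narrower with CDDD11-8. Of 18 members 15 had a promoter peak in all 4 libraries and 3 had none. In each CDDD11-8 library the peak was narrower than both vehicle peaks at 9 of the 15 and wider at 3, against 10.4% narrower and 62.9% wider over all genes. Of the narrower peaks, those of SNHG5, SNHG6, SNHG8, SNHG12, SNHG25, SNHG29 and SNHG32 reached into a protein-coding gene span in both vehicle libraries. That of DANCR did so in vehicle 2 only and that of SNHG15 in neither. SNHG7 and SNHG16, whose widths overlapped between groups, did so too. Over all members occupied in all 4 libraries the share was 14.7% in vehicle 1 and 15.7% in vehicle 2. RNAPII of host and neighbour cannot be told apart there. Gene body coverage was lower at 8 of the 14 that were 1 kb or longer, higher at 1 and overlapping at 5, against 33.1% lower and 29% higher over all genes. The median coverage of the 14 was 98.5% and 97.9% with vehicle and 51.6% and 60.6% with CDDD11-8. SNHG6, SNHG7, SNHG12, SNHG15 and SNHG32 were covered to 100% in both vehicle libraries.

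SNHG8 had a promoter peak of 9451 bp and 9046 bp with vehicle and of 6019 bp and 6711 bp with CDDD11-8, and its coverage was 100% and 96.8% against 51.8% and 70.6%. DANCR had a peak of 8496 bp and 13915 bp against 5019 bp and 5544 bp, and coverage of 98.4% and 100% against 51.4% and 55.8%. SNHG17 was covered to 98.6% and 98.9% with vehicle and to 25.9% and 15.7% with CDDD11-8. SNHG5, a longer gene of 28.3 kb, had a peak of 13516 bp and 12143 bp against 6216 bp and 5965 bp. In these genes the vehicle values lay above the CDDD11-8 values without overlap.

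SNHG29 (40.1% and 40.2% against 24.5% and 9.04%), SNHG15 (100% in both against 79.1% and 71.2%), SNHG6 (100% in both against 71.4% and 83.3%) and SNHG12 (100% in both against 96.1% and 91.5%) had lower coverage with CDDD11-8. For SNHG12 the groups overlapped when regions within 1 kb were joined (exact permutation p = 1.00), the difference of −6.21 percentage points was −3.93 without CDDD11-8 replicate 2, and the longest spliced isoform was covered to 100% with either treatment. SNHG25, shorter than 1 kb, has no coverage value, and its peak measured 11009 bp and 8828 bp against 7269 bp and 7747 bp. SNHG21 went the other way, with coverage of 15% and 21.2% against 28.5% and 31.8%. SNHG11 (57.4% to 84.0%), SNHG16 (28.3% to 28.9%), SNHG30 (23.9% to 65.8%) and SNHG32 (86.2% to 100%) overlapped between groups, and SNHG7 was covered to 100% in all 4 libraries. SNHG14, a host of imprinted snoRNAs, was measured over the 227 kb of its longest isoform, which need not span the whole host transcript. It had no peak at the TSS of that isoform. The protein-coding gene UBE3A, on the other strand, ends 140 kb after this TSS, so the measured body includes bases of UBE3A. RNAPII of SNHG14 and of UBE3A cannot be told apart there. The body of SNHG14 was covered to 21.3% and 19.8% with vehicle and to 0.392% and 0.525% with CDDD11-8. The difference of −20.1 percentage points was −8.53 at equal numbers of peaks, and for the isoform with the longest spliced length no base of the body was covered in any library.

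**Figure D5:**
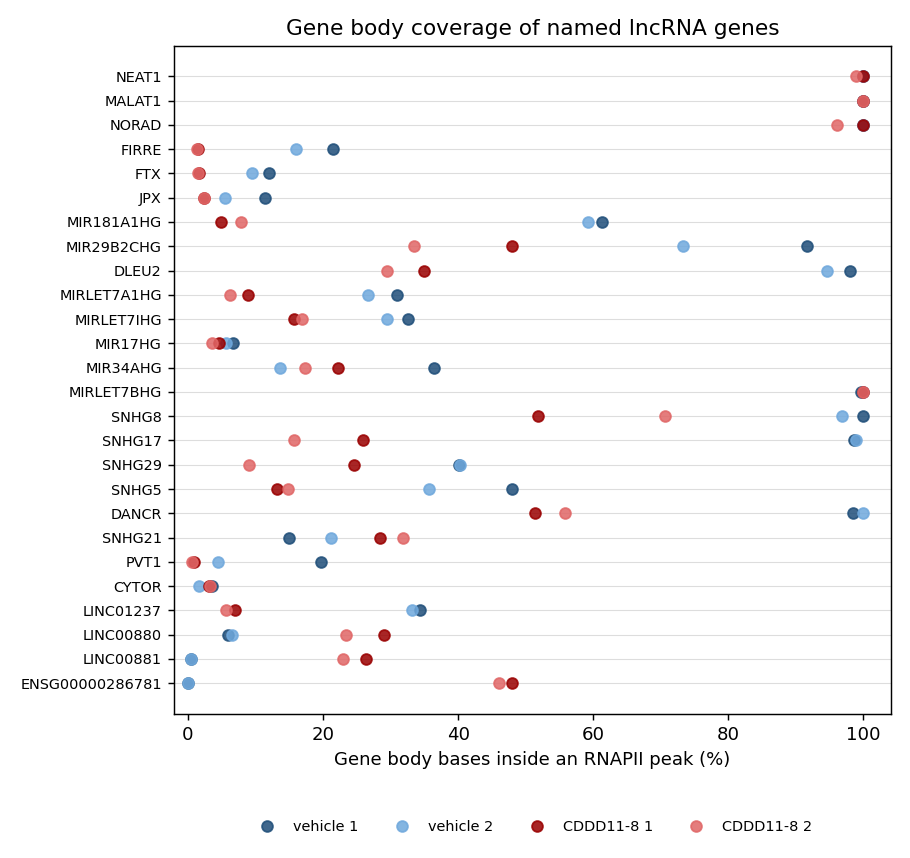
Each point is gene body coverage by RNAPII peaks in percent of bases (horizontal axis) in 1 of the 4 libraries for 26 of the lncRNA genes described in the text. The CDDD11-8 points lie left of the vehicle points for FIRRE, FTX, MIR181A1HG, DLEU2 and most snoRNA hosts, coincide with them near 100% for NEAT1, MALAT1 and MIRLET7BHG, and lie right of them for SNHG21, LINC00880, LINC00881 and ENSG00000286781.

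Of 28 cancer-associated lncRNAs listed, 17 met the rule and 14 of these had no promoter peak in any library, a pattern shared by 89.7% of all members. The other 3, PVT1, CYTOR and LINC00472, had a peak in all 4. PVT1, the 393 kb gene next to MYC, had a promoter peak of 3179 bp and 2452 bp with vehicle and of 4591 bp and 4201 bp with CDDD11-8. Its body was covered to 19.7% and 4.46% with vehicle and to 0.938% and 0.652% with CDDD11-8, without overlap but with a wide spread between the vehicle libraries. The difference of −11.3 percentage points was −3.67 without vehicle replicate 1 and −18.9 without vehicle replicate 2. At equal numbers of peaks it was −1.26, with means of 2.01% and 0.749%, and the groups overlapped (exact permutation p = 0.67). CYTOR was covered to 3.63% and 1.6% against 3.06% and 3.29%, and LINC00472 to 0.549% and 1.03% against 0.740% and 0.572%, so that the groups overlapped in both.

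The members with the largest negative difference in covered bases were, in addition to MIR181A1HG, MIR29B2CHG and SNHG14, the genes DLEU2, LINC01237, ENSG00000235978, CYP4Z2P and DLEU1. DLEU2, the host of miR-15a and miR-16-1, was covered over 98.0% and 94.6% of its 143 kb with vehicle and over 34.9% and 29.5% with CDDD11-8. This depends on the isoform, since for the isoform with the longest spliced length the means were 81.8% with vehicle and 98.8% with CDDD11-8. The protein-coding gene KCNRG ends within the body of DLEU2, 105 kb after the DLEU2 TSS. DLEU1, which runs in the opposite direction, was covered over 46.3 kb and 48.3 kb with vehicle and over 14.1 kb and 12.9 kb with CDDD11-8. DLEU1 starts inside DLEU2, so covered bases of the stretch they share count for both genes, and the values are not independent. LINC01237 was covered to 34.4% and 33.1% against 7.01% and 5.65%, with means of 18.7% and 6.23% at equal numbers of peaks. ENSG00000235978, of 75.1 kb, starts 20.8 kb past the end of ITPR1 and runs back into that protein-coding gene on the other strand. RNAPII of ENSG00000235978 and ITPR1 cannot be told apart there. ENSG00000235978 was covered to 73.6% and 64.0% against 0.358% and 0.245%, and CYP4Z2P, a cytochrome P450 pseudogene, to 79.6% and 77.0% against 3.63% and 2.11%. These genes were chosen for this difference, which is given as a description.

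The members with the largest positive difference in covered bases were ENSG00000286781, LINC00881, LINC00880, ENSG00000253398 and LINC01191. ENSG00000286781, a 22.7 kb gene 35.5 kb past RPSA, had no peak in its body with vehicle and was covered to 47.9% and 46.1% with CDDD11-8. It had no promoter peak in any library. LINC00880 and LINC00881 overlap on opposite strands of chromosome 3, and LINC00880 starts 17.9 kb past the end of the cyclin L1 gene CCNL1. LINC00881 was covered to 0.510% and 0.393% with vehicle and to 26.3% and 23% with CDDD11-8, and LINC00880 to 5.86% and 6.47% against 29.0% and 23.4%. ENSG00000253398 was not covered with vehicle and was covered to 17.0% and 19.3% with CDDD11-8. The protein-coding gene CCN3, on the other strand, ends within this 42.4 kb body, 37.9 kb after the TSS. LINC01191, which starts 8.12 kb past ACTR3, was covered to 8.27% and 6.92% against 47.7% and 25.8%, in 16 to 20 separate peaks with CDDD11-8. These values too are a description of members chosen for them.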

How the data were processed

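RNAPII was measured by ChIP-seq in 4 libraries, with 4 input libraries not analysed here on their own. Per the study's methods and labels, the authors aligned reads to GRCh37 (hg19) with Bowtie2 and called peaks in each library with MACS2 against its input, without pooling. The deposited lists give, for each summit, the authors' pileup signal, the fold enrichment over local background (a ratio) and a p-value and a q-value, both as −log10. All listed q-values are 2 or more on that scale. The lists hold no read totals, so depth is unknown, no interval from depth is given, and longer lists find more weak promoters.

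Summits of 1 region were joined into 1 peak with its highest fold enrichment. Genes came from GENCODE release 44 in GRCh37 coordinates, with 1 isoform per gene, that of the longest genomic span. The same definitions were applied to lone protein-coding promoters, which lie over 5 kb from other protein-coding starts and outside other protein-coding genes. The distance past a protein-coding TES was measured in the direction of that gene. Width is the longest peak at the promoter. Each library gave 1 value, and group means were tested with an exact permutation test, two-sided, over 6 splits.

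The members and lists were chosen with earlier results of these data known. Named genes were members of role lists (nuclear RNAs, small RNA hosts, cancer-associated lncRNAs) with a promoter peak in at least 1 library, the 8 with the largest negative and the 5 with the largest positive difference in covered bases in both same-numbered pairs, the 8 strongest promoters and the 5 strongest of each changing pattern. One of the named members is not reported here. Alternatives were equal numbers of peaks, a stricter q-value (5 as −log10), joined regions, summits, other windows, isoforms and distances, other member sets, each library left out and a replicate block. The code was tested on simulated data with peaks at 200 lone lncRNA genes and recovered all 200. Python 3.11.15, numpy 2.4.6 and pandas 2.3.3 were used.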

Additional observations from a re-analysis of the deposited data

How the results depend on the processing

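At equal numbers of peaks the treatment difference in lone lncRNA promoter share turned to 0.307 percentage points and that in promoter peaks without a gene body peak to −1.30, the coverage difference was −0.700, the differences from protein-coding genes were −3.98 (share) and 2.94 (coverage), the near minus far change was −2.08, and the vehicle-only, CDDD11-8-only, lower-coverage and higher-coverage counts were 51, 63, 92 and 168. With peaks of −log10 q 5 or more the share difference was −0.671 and the coverage difference −2.07. With summits in place of regions, which give no width or coverage, the difference in promoter peaks without a gene body peak was 3.39 and the vehicle-only count 67. With the gene body from 2 kb after the TSS the coverage difference was −7.52 and the lower- and higher-coverage counts were 134 and 40. With genes within 20 kb past a protein-coding TES left out, the share difference was −0.0131, the coverage difference −1.56, and the vehicle-only, CDDD11-8-only, narrower-peak and lower-coverage counts were 26, 25, 29 and 78. With CpG-poor promoters left out, chosen after seeing the data, the share difference was 1.14, the differences from protein-coding genes −1.35 (share) and −262 bp (width), the near minus far change −0.551, the vehicle-only, CDDD11-8-only and narrower-peak counts 4, 14 and 38, and 25% of vehicle-only members lay within 20 kb past a protein-coding TES. The cause of these shifts was not tested.

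Leaving out each library in turn gave share differences of −1.50 to −0.708, width differences of 561.5 to 1029.8 bp, coverage differences of −5.82 to −1.63, vehicle-only counts of 109 to 186, CDDD11-8-only counts of 43 to 72 and narrower-peak counts of 107 to 157. A single library is assumed to stand for its group there. The change with treatment in the difference between members and protein-coding genes kept its direction for share, coverage and width under all alternatives run. The coverage difference itself did not keep its direction. Its vehicle mean was 7.64 percentage points, but −3.87 with the body from 2 kb after the TSS and −0.775 with the body to 3 kb past the TES. Of 601 values of 43 named members, 550 stayed within 1.5 times, 43 kept their direction only, 2 fell to a difference of 0 (SNHG12 and SNHG14, longest spliced isoform) and 6 turned: MIR924HG (0.0621 at the stricter q-value and 0.213 at equal numbers), JPX (0.702 at equal numbers), LINC02631 (0.206 with regions joined), MIR4458HG (−0.667 with the body from 2 kb) and DLEU2 (16.9 with the longest spliced isoform).

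The labels give replicate numbers only, and the study describes the replicates as passages of the cells. Deviations of same-numbered libraries correlated at 0.06 over 513 members. With a replicate block the differences are by construction those without it, −1.10, 871.5 bp, −3.46 and 17.5 for share, width, coverage and promoter peaks without a gene body peak, and the exact p is 0.5, the smallest possible with 2 pairs. Depth is unknown, so whether weak promoters were missed in the shorter lists was not tested.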
